A study of Talpa occidentalis with 2 samples.

Results

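The genes described here are 10 regulators of limb patterning in the Iberian mole, Talpa occidentalis: PITX1, TBX4, TBX5, TBX2, TBX3, GLI3, HAND2, LMBR1, MSX2 and LMX1B. They were chosen by symbol, as the names carried by the gene records of the annotation of mole build talOcc3 deposited with the series, without copy and confidence suffixes. All 10 were found, with 12 gene models between them, out of 16075 symbols and 23336 models in all. The series used 4C-seq, which maps the DNA that touches a chosen site in the nucleus, with the FGF9 promoter as that site. Its 2 libraries came from wild-type mole embryos of embryonic day 15, 1 from forebrain and 1 from hindlimb. The file analysed holds no column for either library, and contact values were not analysed here. What follows describes 1 assembled genome, with no replicates and no test, and its precision is set by the assembly and the gene models. FGF9 lies on scaffold 38, which holds 0 of the 10 genes.

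Limb buds acquire their identity and axes from a small set of transcription factors and signals. PITX1 and TBX4 act in the hindlimb bud and TBX5 in the forelimb bud. HAND2 promotes expression of Sonic hedgehog (SHH) in the posterior bud. GLI3 is processed into a repressor where SHH is absent, and TBX2 and TBX3 are expressed along the bud margins. LMX1B specifies dorsal identity, and MSX2 is a target of BMP signalling. LMBR1 encodes a membrane protein and is known in limb biology because, in human and mouse, an intron of it holds the long-range enhancer that drives SHH in the limb bud. Genes of this kind are often bordered by long stretches without other genes, in which distal enhancers lie.

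Hindlimb identity was described first. PITX1, a homeobox factor, occupied bases 58096373 to 58102205 of scaffold 3, plus strand. Its model had 5 coding exons of 436, 233, 524, 242 and 344 bases and spanned 5.83 kb. Upstream of it, 268 kb held no model. That stretch ended at H2AFY, the macroH2A histone gene, and at a single-exon C5orf66 model inside its 3′ end on the other strand, and TIFAB, NEUROG1 and CXCL14 followed. Downstream, the sperm channel gene CATSPER3 was only 15.7 kb away, and TXNDC15, DDX46, CAMLG and SEC24A followed, all on the minus strand. PITX1 therefore stood at the edge of a gene-dense stretch with its open side upstream. With 31 other gene starts within 1 Mb of its own, it had the most of the 10 genes when all models were counted, against a median of 24 over all loci. Among models of at least 2 coding exons it had 26 and LMX1B 28.

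TBX4, the T-box factor of the hindlimb bud, was divided over 2 models on the plus strand of scaffold 25. TBX4_copy2, from 32975537 to 32976605, had 2 coding exons and 270 coding bases. TBX4, from 32984415 to 33000392, had 6 coding exons and 1359 coding bases. They lay 7.81 kb apart and matched successive parts of their targets, from base 205 to 466 and from 487 to 1839. Together they held 8 coding exons and 1629 coding bases over 24.9 kb. Downstream, a single-exon H3F3A model lay 107 kb away, and the DNA helicase gene BRIP1, INTS2, MED13 and a single-exon DDT model followed. DDT, 387 kb beyond TBX4, was the last model of the scaffold, so gene numbers on that side are cut short.

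TBX5, the T-box factor of the forelimb bud and the heart, occupied bases 7428544 to 7458738 of scaffold 27, minus strand. It had 8 coding exons and 1173 coding bases, fewer than the 2 TBX4 models together. Its longest intron, the sixth, measured 14.7 kb. Downstream, 246 kb without a model separated it from RBM19, and LHX5, SDSL, SDS and PLBD2 followed. Upstream came a single-exon DBI model, at 97.7 kb, and then TBX3.

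TBX2 and TBX3, close paralogues that act as transcriptional repressors, each neighboured one of these T-box genes. TBX2 was also divided, on scaffold 25, plus strand. The model named TBX2, from 32933686 to 32936878, held 4 coding exons with 948 bases. TBX2_copy2, from 32937502 to 32940273, held 2 with 624 bases. Only 623 bases lay between them, and they matched target bases 681 to 1337 and 1468 to 2091. Together they held 6 coding exons and 1572 coding bases. Upstream of TBX2, 245 kb without a model reached to BCAS3, and PPM1D, a single-exon PPA1 model, APPBP2 and a PPME1 model followed. TBX3 occupied bases 7629111 to 7640282 of scaffold 27, minus strand, and had 8 coding exons of 1842 bases in all. Its upstream side held the longest gap beside any of the 10 genes. From 7640283 to 8616873, 977 kb without a model separated it from MED13L, a subunit of the Mediator kinase module. A single-exon POLR2F model, C12orf49, RNFT2 and FBXW8 lay beyond it.

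The T-box pairs had the same layout. TBX2 and TBX4 were transcribed in the same direction with TBX2 upstream, 50.7 kb from start to start. TBX3 and TBX5 were likewise transcribed in 1 direction with TBX3 upstream, 182 kb from start to start. The edges of the first pair were 35.3 kb apart with 0 models of other symbols between, and those of the second 170 kb apart with 1, the DBI model. Genes across the pairs also shared exon lengths. TBX2 and TBX3 both had successive coding exons of 147 and 77 bases, a run found in 4 of 17565 models of at least 2 coding exons (0.0228%). TBX4 and TBX5 both had exons of 148 and 153 bases in succession, found in 9 of these models (0.0512%). No coding exon length was shared between TBX2 or TBX3 on the one hand and TBX4 or TBX5 on the other. The 10 other T-box genes compared (TBX1, TBX6, TBX15, TBX18, TBX19, TBX20, TBX21, TBX22, TBR1 and EOMES) shared no run of 2 or more coding exons with any of these 4.

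**Figure D1:**
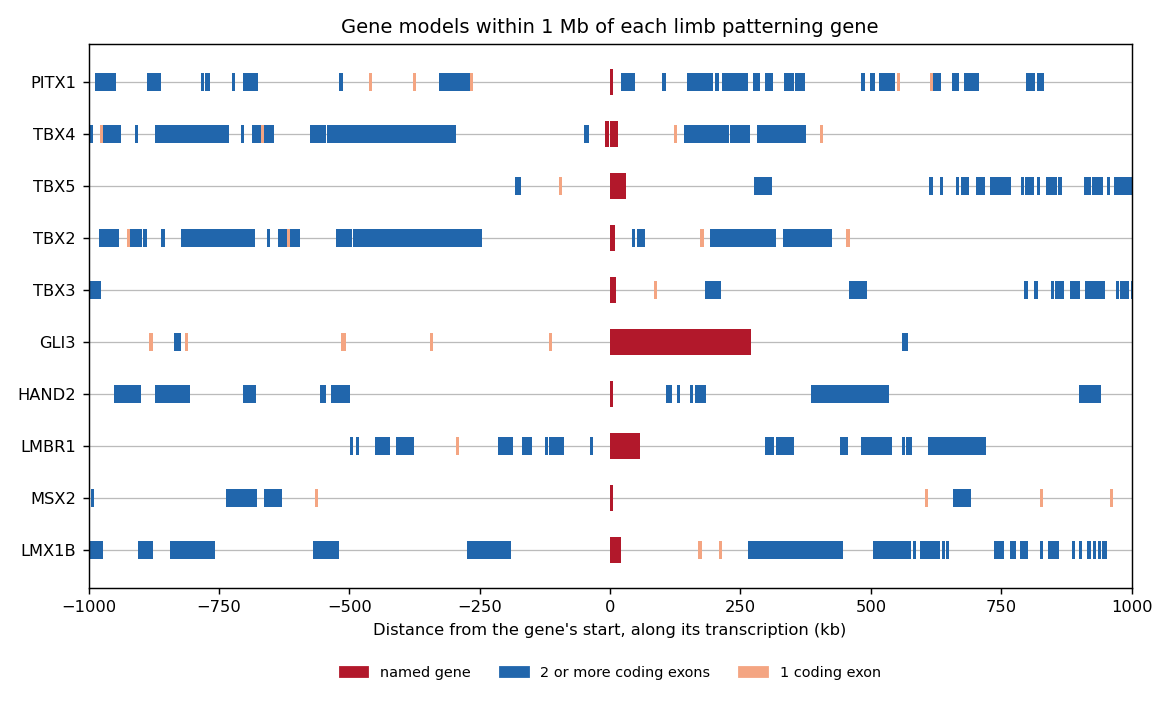
Gene models within 1 Mb of the start of each gene, drawn along its direction of transcription in kb; red marks the named gene, blue models with at least 2 coding exons and orange models with 1, and very short models are drawn at a minimum width. With all models counted, MSX2 stands in the emptiest stretch, with no other model between 563 kb on its 5′ side and 598 kb on its 3′ side. Among models of at least 2 coding exons, GLI3 has 4 other gene starts within 1 Mb and MSX2 5. PITX1 has its nearest 3′ neighbour at 15.7 kb.

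The SHH limb pathway was represented by LMBR1, GLI3 and HAND2. SHH itself, the ligand, had no model in the annotation. RefSeq, from a later mole assembly (MPIMG_talOcc4v2.1), lists SHH and then the ring finger gene RNF32 between RBM33 and LMBR1. In the deposited annotation the same place was a gap of 239 kb, from 74097024 to 74335865 on scaffold 5, with 0 models. A further listed gene of the locus, the homeobox gene MNX1, also had no model, and RefSeq lists it between NOM1 and UBE3C. Of 15999 RefSeq protein-coding symbols, 2000 (12.5%) had no deposited model under the same name.

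LMBR1 occupied bases 74335866 to 74394067 of scaffold 5, minus strand. Its model had 18 coding exons and 2589 coding bases, but only 1160 bases (44.8%) fell inside the match to the LMBR1 target. This was the lowest share of the 10 genes by the span of the recorded match, though HAND2 would be lower by its target bases. Exons 1, 2 and 3, of 431, 470 and 203 bases, lay outside the match, within 1.41 kb at the 5′ end. The match began with exon 4 and ended in exon 17, and exon 18 lay outside. In RefSeq, 1 protein-coding gene without a symbol lies between LMBR1 and NOM1, the neighbour on that side, whose model began 32.7 kb away. UBE3C, DNAJB6 and PTPRN2 followed NOM1, and on the other side RBM33, EN2, INSIG1, PAXIP1 and DPP6 followed the gap.

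The intron that hosts the limb enhancer in human and mouse is number 5, and its counterpart depended on how introns were counted. From the first coding exon of the model, which lay outside the target match, intron 5 lay from 74387078 to 74390725 and measured 3.65 kb. Counted back from the last coding exon for a gene of 17 coding exons, as in human, it was intron 6 of the model, from 74373992 to 74386937, 12.9 kb. Counted from exon 4, the first in the target match, it was intron 8, of 125 bases. The match starts at target base 282, and whether the target has coding exons before that base was not tested. The paralogue LMBR1L gave a further numbering, chosen after its exon lengths were seen. LMBR1 exons 13 to 16 and LMBR1L exons 10 to 13 shared the lengths 77, 78, 74 and 91 in succession, a run in 2 of 17565 models (0.0114%), these 2 genes. With this shift of 3 exons, LMBR1 exons 4 to 16 had the length of their LMBR1L counterpart in 8 of 13 cases, among them exons 6 and 7 with 140 and 104 bases, and exons 17 and 18 differed. LMBR1L held 1446 coding bases, and the LMBR1 model held 1485 from exon 4 on and 2589 in all. LMBR1L had 16 coding exons, 3 of them after the shared run where LMBR1 had 2. If those 16 are taken as the last 16 of 17, intron 5 falls on intron 7 of the LMBR1 model, from 74358133 to 74373887. This was also the longest of its 17 introns at 15.8 kb, a length that 3.60% of all introns reach. Introns 6 and 7 together measured 28.7 kb and made up 51.6% of the intron bases of the model. The annotation alone did not settle which of these introns is the counterpart.

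**Figure D2:**
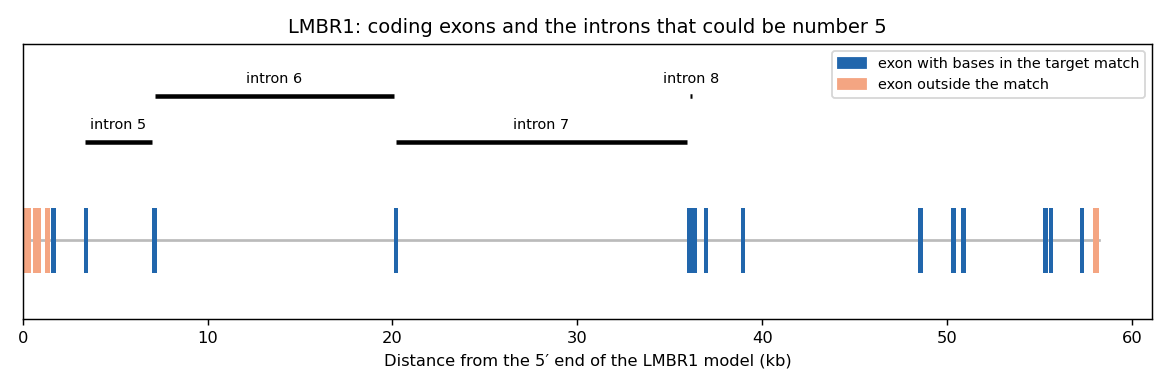
Coding exons of the LMBR1 model by distance from its 5′ end in kb, blue where bases lie in the match to the named target and orange where none do, with very short exons drawn at a minimum width. Black bars mark introns 5 to 8, which the countings in the text assign to number 5; introns 6 and 7 measure 12.9 and 15.8 kb.

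GLI3, the zinc finger effector of hedgehog signalling, occupied bases 39738513 to 40008338 of scaffold 16, plus strand. It was the longest of the 10 genes at 269.8 kb, and 1.05% of all models span as much or more. Its 14 coding exons held 4764 coding bases, all inside the target match. The first intron measured 76.8 kb, a length reached by 0.381% of introns, the second 69.97 kb, the third 32.4 kb and the ninth 52.7 kb. GLI2 shared its exon structure in part. With the 202 and 214 base exons of both genes set side by side, 5 of 13 coding exons had equal length. The run of 202 and 214 bases was found in 2 of 17565 models (0.0114%), GLI2 and GLI3, and a second run of 150 and 165 bases, also held by GLI1, in 14 (0.0797%). Downstream of GLI3, 290 kb without a model reached to INHBA, which encodes an activin subunit, and SUGCT, MPLKIP and 2 models with LOC identifiers followed. Upstream, the 5 nearest models, UGT2B17_copy4, HSBP1_copy2, CD24, RPS2_copy7 and C7orf25, each had 1 coding exon. The nearest upstream model with at least 2 coding exons was the proteasome gene PSMA2, 823 kb away.

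HAND2, a basic helix-loop-helix factor of the posterior limb bud and the heart, occupied bases 51183369 to 51186663 of scaffold 13, minus strand. It had 3 coding exons of 192, 234 and 435 bases and spanned 3.30 kb. Upstream, 499.6 kb without a model separated it from the F-box gene FBXO8, followed by CEP44, HPGD, GLRA3 and ADAM29. Downstream, SCRG1 lay at 104 kb, with SAP30, HMGB2_copy2, GALNT7 and GALNTL6 beyond it. Each of these 10 neighbours had at least 2 coding exons. HAND2 had 11 other gene starts within 1 Mb.

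MSX2, a homeobox gene of the limb margin and the skull, occupied bases 36210549 to 36215270 of scaffold 2, minus strand. The model, an alignment by exonerate, had 2 coding exons of 379 and 422 bases around 1 intron of 3.92 kb. Long gaps bordered it on both sides, 563 kb upstream to HMP19 (NSG2), which encodes a neuronal vesicle protein, and 598 kb downstream to the dopamine receptor gene DRD1. A single-exon ROMO1 model, C5orf47, CPEB4 and BOD1_copy2 lay beyond HMP19, and SFXN1, HRH2 and 2 models without a symbol lay beyond DRD1. MSX2 was the only gene of the 10 with at least 500 kb on each side, which 0.485% of all loci have. Within 0.5 Mb of its start there were 0 other gene starts, as for 7.90% of loci. That share includes loci near scaffold ends, whose windows are cut short, whereas MSX2 lies far from a scaffold end.

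LMX1B, the LIM homeobox gene of the dorsal limb, occupied bases 50373041 to 50394511 of scaffold 15, plus strand. Its model, from a source named ALN, had 9 coding exons and 1134 coding bases. MVB12B lay 190 kb upstream, with PBX3, MAPKAP1, GAPVD1 and HSPA5 beyond it. ZBTB43 and ZBTB34, with 1 coding exon each, lay 148 and 188 kb downstream, then RALGPS1, ANGPTL2 and GARNL3. LMX1B had 30 gene starts within 1 Mb. It and PITX1 were above the median of all loci, and the other 8 genes, at 10 to 20, were below it. Within 0.5 Mb the median of the 10 genes was 4.5 against 13 over all loci. There LMX1B, with 5, fell below the median, LMBR1, with 13, was at it, and PITX1, with 14, stayed above. For TBX2, TBX4 and LMBR1 the window ran past the annotated end of the scaffold, which lay 403 to 499 kb from their starts. The medians of gene starts over all loci also include loci near scaffold ends.

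The gaps were then set against those of all loci, where a locus is the set of successive models of 1 symbol and a gap is the distance to the nearest edge of any other model. The larger gap of the 10 genes had a median of 257 kb, and 18978 loci with a neighbour on each side had a median of 36.2 kb. The smaller gap had a median of 85.0 kb against 8.16 kb, and with models of at least 2 coding exons 137 kb against 9.18 kb. All 10 genes lay above the median of all loci. TBX3, with 977 kb, stood highest, where 1.40% of loci had as long a gap or longer. MSX2 followed with 598 kb (3.66% of loci), HAND2 with 499.6 kb (4.84%), GLI3 with 290 kb (9.76%) and PITX1 with 268 kb (10.6%). TBX5, TBX2 and LMBR1 were within 8 kb of each other, at 246, 245 and 239 kb (11.6%, 11.7% and 11.9%). These are gaps between deposited models: RefSeq lists SHH and RNF32 inside that of LMBR1 and 1 protein-coding gene inside that of TBX2. LMX1B, at 190 kb (14.8%), and TBX4, at 107 kb (24.4%), had the shortest.

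At least 500 kb was reached by 2 of the 10 genes, TBX3 and MSX2, where 4.83% of loci reach it, and HAND2 lay just under this limit. At least 250 kb was reached by 5 genes, against 11.4% of loci, and 1000 kb by 0, against 1.32%. Among models with at least 2 coding exons, GLI3 joined with its 823 kb upstream of the start, which made 3 genes against 6.46% of loci. This choice of models changed the larger gap of GLI3 2.84 times and turned it from the 3′ to the 5′ side. Over all models, the larger gap was on the 5′ side for 5 of the 10 genes (PITX1, TBX2, TBX3, HAND2 and LMX1B) and for 60% of all loci with unequal gaps. That of LMX1B also turned, to 242 kb on its 3′ side, once single-exon models were left out. RefSeq lists ZBTB43 and ZBTB34, the models left out there, as protein-coding, so this stretch is not without genes.

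**Figure D3:**
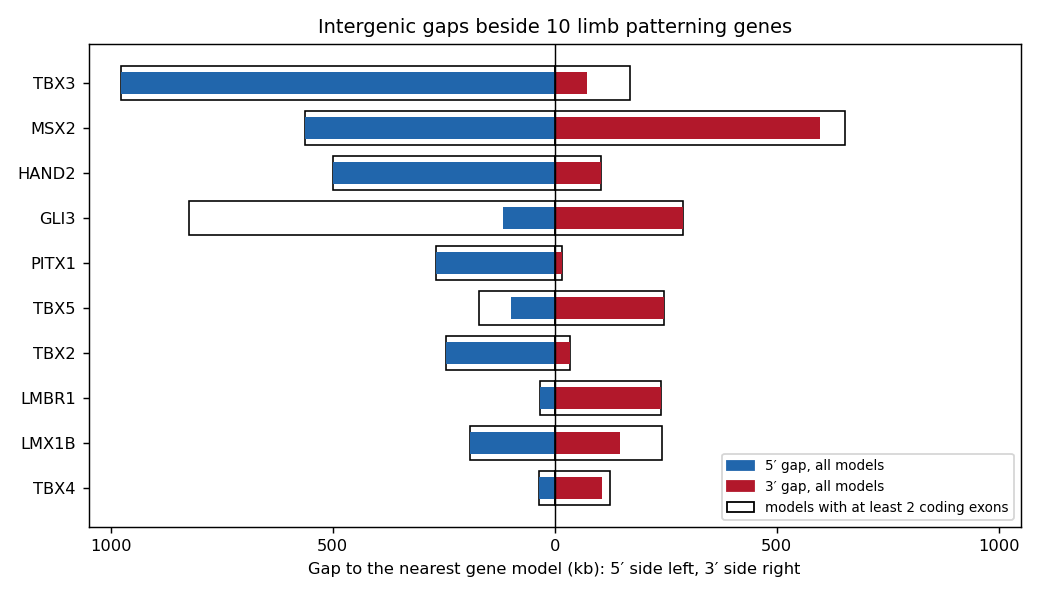
Gap in kb from each gene to the nearest model on its 5′ side (left, blue) and 3′ side (right, red), with black outlines for gaps that only models with at least 2 coding exons can end. TBX3 has 977 kb on its 5′ side, and the outline for GLI3 reaches 823 kb where the filled bar ends at 117 kb.

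**Figure D4:**
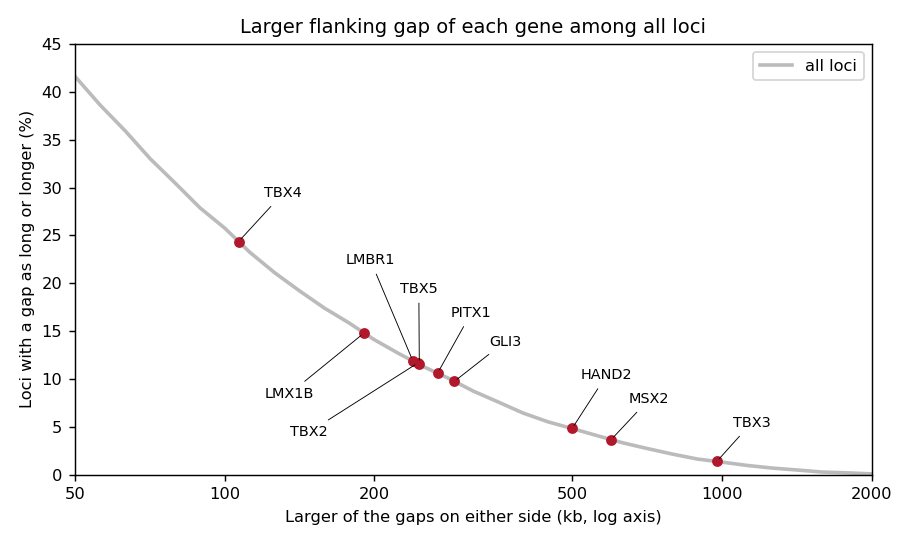
Share of all loci (%, grey line) whose larger gap is as long as or longer than the length on the x axis (kb, log axis), with the 10 genes as red points. They run from TBX4 at 107 kb, where 24.4% of loci lie at or above, to TBX3 at 977 kb, where 1.40% do.

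Gene order around the 10 genes was compared with lists of the human order, 94 places in all over 8 loci, written from general knowledge. A model was found for 86, which gave 78 successive pairs, and 78 of 78 lay on 1 scaffold with starts within 2 Mb and fewer than 5 listed genes between, in either direction. The largest distances were 1641 kb between the starts of SUGCT and INHBA and 1203 kb between those of TBX3 and MED13L. When directly successive places were required, 77 of 78 held. The exception was near TBX2, where the list has USP32, CA4 and APPBP2, and both the deposited models and RefSeq have CA4, USP32 and APPBP2. The list was not checked against a human annotation, so the exception is no evidence of a difference between human and mole. Models beyond the ends of the lists were not compared, among them ZNHIT3, MYO19, PIGW and GGNBP2 beyond CA4. The count of kept pairs therefore does not cover all models within 1 Mb. In RefSeq, 72 of 72 pairs with both symbols listed lay on 1 sequence within 2 Mb. The 8 places without a model were C5orf24 and PCBD2 near PITX1, NACA2 near TBX4, HRK near TBX3, and CNPY1, SHH, RNF32 and MNX1 near LMBR1. RefSeq lists PCBD2, HRK, SHH, RNF32 and MNX1 by symbol, and C5orf24 under the name CUNH5orf24. The LMBR1 locus thus lacked 4 of its 12 places, the most of any of the 8 loci.

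RefSeq also gave the features that lie between each gene and its nearest deposited neighbour of at least 2 coding exons that it lists by symbol. The 20 sides make up 18 distinct intervals, since the T-box pairs share 1 each. RefSeq held 49 features in them, of which 21 were long non-coding RNA genes, 14 protein-coding genes and 11 pseudogenes. Some intervals reach past the gaps above and take in genes that have deposited models. That of PITX1 runs to CXCL14 and holds NEUROG1 and TIFAB, and that of MSX2 runs to SFXN1 and holds DRD1. In 10 of the 18 intervals there was no protein-coding gene. Between TBX2 and BCAS3 it held 3 features, 1 of them a protein-coding gene without a symbol. Between TBX3 and MED13L it held 6 features, 5 of them long non-coding RNA genes. Between HAND2 and FBXO8 it held 1 long non-coding RNA gene and 1 pseudogene, and between GLI3 and INHBA 0 features. Upstream of GLI3 as far as PSMA2 it held 8 features, 4 of them pseudogenes and 2 protein-coding. Of the 100 neighbour places around the 10 genes, in which genes beside both T-box members are counted more than once, 26 were loci of 1 coding exon. RefSeq lists the symbols of 84 of the neighbours as protein-coding at any position, which need not be at these loci. At the loci themselves, 68 are among its 5 nearest named protein-coding genes on either side. For GLI3 these numbers were 6 and 3.

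The models were also described by the part of their coding bases that lies inside the recorded match to a target transcript of the same symbol. This share says how much of a model the recorded match spans, not how much of the gene the model holds, and both models of the divided TBX4 reach 100%. GLI3, MSX2 and TBX4 had 100% inside, and TBX3 99.8%. Under 80% was found for 6 of the 10 genes, against 28.4% of 17168 models with at least 2 coding exons. These were HAND2 (77.8%, an upper limit), LMX1B (77.3%), TBX5 (71.3%), TBX2 (69.3%, without TBX2_copy2), PITX1 (56.2%) and LMBR1 (44.8%). The limit of 80% was set with these values known. At 70% the number was 3, against 19.3% of these models, and at 90% it was 6, against 41.1%. The TBX2 models held 657 and 624 matched bases. Of their 1572 coding bases together this is above 80%, so TBX2 counts under 80% and 70% by its longer model only. In PITX1 the match took exactly exons 2 to 4, 999 bases, and left out the first and the last exon. In TBX5 it took exons 2 to 7, and in LMX1B it left out exons 1 to 3. In HAND2 the first exon, of 192 bases, lay outside. The match of HAND2 spans 670 of its 861 coding bases, but its target bases run only from 1259 to 1592. The target part is shorter than the spanned part, so 77.8% is an upper limit. By its target bases HAND2 would fall under 70% and below LMBR1. Coding lengths given above include exons outside a match, and whether those exons belong to the genes was not tested. Of all symbols, 14.6% had at least 2 models, and of the 10 genes TBX2 and TBX4 did, each with models of separate target parts.

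**Figure D5:**
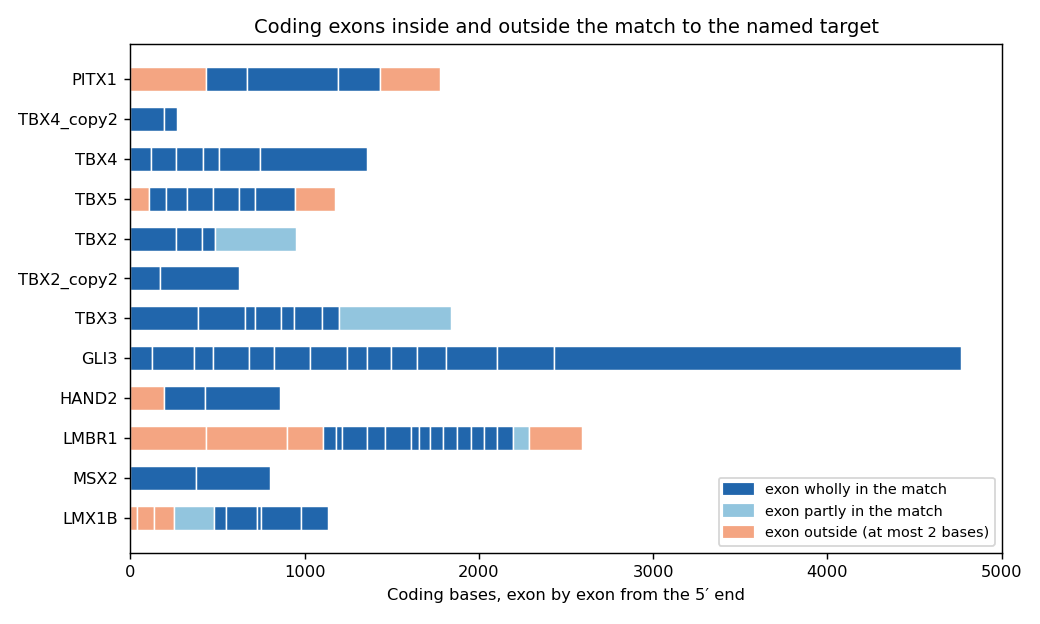
Coding exons of the 12 models end to end from the 5′ side, in coding bases, with exons wholly inside the target match in dark blue, partly inside in light blue and outside in orange. LMBR1 opens with 3 exons of 1104 bases outside the match, and all 14 exons of GLI3 lie inside.

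Other genes of the pathways were counted from lists of 55 symbols, of which 50 had a model. Among 13 hedgehog pathway genes, 11 had a model, and SHH and the SHH co-receptor gene GAS1 did not. The kinesin gene KIF7 and the co-receptor gene BOC were among those with 2 models. In the T-box family 12 of 13 had exactly 1 model and TBX10 had none. All 6 listed paralogues of the 10 genes had 1 model. Among 23 limb bud regulators, EN1, which restricts dorsal identity, and SP8, a factor of the apical ridge, had no model, and ETV5 and the joint factor gene GDF5 had 2. RefSeq lists SHH, GAS1, TBX10 and SP8 by symbol. The 5 of 55 symbols without a model stand beside the 12.5% of RefSeq symbols without one.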

How the data were processed

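Only the gene annotation was used. It holds gene, transcript and coding exon positions on talOcc3 scaffolds, counted from 1, and models from EVM, exonerate or ALN, per the file's second column. The deposited score of each transcript and its matched ranges were assigned by the authors, with the method not given in the sources used here. Scores served no comparison. The submitters' processing notes name BWA for the 4C reads. The deposited query range was read from the lower coordinate on both strands: on the minus strand, 39.0% of 5661 internal match ends then lay within 2 bases of an exon boundary, against 2.54% read along the transcript. Symbols were taken from model names, and models of successive equal symbols were merged into loci. Percentages among loci, models and introns are descriptions. Python 3.11.15 and numpy 2.4.6 were used, and the routines were tested on simulated data.

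The members and gene lists were chosen with earlier results of these data known. The text names the 10 genes, those of their 5 nearest neighbours on each side that have a symbol, listed neighbours without a model, and up to 10 pathway genes with no model or several; other genes named for order, RefSeq features or paralogous exons were chosen after their values were seen. RefSeq gave names, biotypes and gene order only.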

Additional observations from a re-analysis of the deposited data

How the results depend on the processing

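The median larger gap stayed at 257 kb when only models with a symbol were kept. It was also 257 kb with models of at least 300 coding bases or at least 2 coding exons. Gaps of single genes changed in 5 of 30 cases. All 5 lengthened, since leaving out models cannot shorten a gap. The median share of loci with as long a gap, 11.1%, was 13.4% with models of at least 2 coding exons. It was 12% when loci within 1 Mb of a scaffold end were left out of the background only. TBX2, TBX4 and LMBR1, which lie that near an end, stayed among the 10 genes. Genes beside a gap of at least 500 kb numbered 2, and 5 at 250 kb or 0 at 1000 kb. The median number of gene starts, 18, was 4.5 in a window of 0.5 Mb, where that of all loci went from 24 to 13. The median smaller gap, 85.0 kb, was 111 kb with models of at least 300 coding bases and 137 kb with models of at least 2 coding exons. Counted from the first coding exon of the model, the LMBR1 intron was 3.65 kb. Under the other countings it was 12.9 kb, 15.8 kb (by length or through LMBR1L) and 0.125 kb. The countings through LMBR1L and from the target match were chosen after seeing the data. Genes with a match under 80% of coding bases numbered 6, and 3 under 70%. In these counts TBX2 stood by its longer model and HAND2 by its upper limit. Kept pairs (72 to 78) and genes with 1 model (8, or 10 with models of separate target parts merged) stayed within 1.5 times.

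Not run were the comparison with RefSeq protein lengths, whose table was not used here, and that of 4C contacts. No paired analysis was possible because each tissue has 1 library and no value here comes from a library. No sequencing depth belongs to these values. The completeness of the assembly within the gaps was not tested.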

Other observations

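The first coding exon lay outside the target match (with at most 2 matched bases) in the longest model of 5 of the 10 genes, PITX1, TBX5, HAND2, LMBR1 and LMX1B, and in 31.4% of 17161 models with at least 2 coding exons and a match. Models of some listed paralogues showed the same feature. HAND1 and LMX1A opened with 2 such exons each and MSX1 with 6, whereas PITX3 and LMBR1L opened inside the match. MSX1 had 8 coding exons, of which the match held 30.2% of the coding bases, and MSX2 had 2, all inside. These genes were compared after their values were seen.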
